A study of Mus musculus with 28 samples.

Results

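The 10 genes described here mark hepatic stellate cells and the myofibroblasts that arise from them: Lrat, Des, Vim, Acta2, Tagln, Pdgfrb, Lum, Dcn, Lox and Loxl1. They were chosen by name, as all probes whose gene name in the scanner files is one of these 10. This gave 18 probes of 41174, and all 10 genes were among the 21032 genes tested. Each level is the log2 ratio of a mouse sample, labelled with Cy3, to a commercial mouse reference RNA labelled with Cy5, on 2-colour Agilent arrays. A value of 0 means that sample and reference gave equal signal, so levels are compared between groups for 1 gene and not between genes.

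The series compared tissues with liver cultures derived from Lgr5-positive cells and holds 28 arrays in 13 groups, all of strain C57BL/6. Undamaged liver came as adult liver of wild-type mice (2 arrays) and as whole liver (2), the tissue hybridised beside the isolated cells. Liver was also taken at day 3 and at day 13 of carbon tetrachloride (CCl4), which injures the hepatocytes nearest the central veins (2 arrays each). The labels give these times both as days and as lengths of treatment, and do not say whether the toxin was given once or repeatedly. Isolated cells were a hepatocyte fraction (2), duct cells sorted with the antibody Mic1-1c3 (2) and cells sorted for Lgr5 at day 6 of CCl4 (2), for which the labels name no reporter allele. Lgr5, the R-spondin receptor that amplifies Wnt signals, is a marker of stem cells in the gut and other organs. Organoids, epithelial cultures grown from single Lgr5-sorted cells, were kept in expansion medium (EM, 2 arrays) or in differentiation medium (DM, 1 array). The set was completed by wild-type muscle (3 arrays), pancreas (2), brown adipose tissue (3) and white adipose tissue (3). The labels give no age and call most arrays biological replicates. They do not say whether these came from separate animals, so p-values measure the spread between arrays, which may be technical in part.

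Stellate cells lie between hepatocytes and the sinusoidal endothelium, where they store vitamin A as retinyl esters made by the enzyme that Lrat encodes. After injury they can lose these stores, divide under signals through the PDGF receptor, and become contractile myofibroblasts that deposit and cross-link collagen. Smooth muscle cells, pericytes, portal fibroblasts and fibroblasts of other organs express many of the same genes, and desmin also belongs to skeletal muscle. In bulk samples such as these, fewer cells of a type and less RNA per cell cannot be told apart.

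The share of all probes above background in the sample channel ranged from 17.7 to 69.1% over the arrays, and it was 18.5 and 21.0% on the dimmest pair of liver arrays, the Lgr5-sorted cells. All 10 genes were above background on both arrays of each CCl4 time, 9 or 10 in adult liver and in duct cells, 5 in Lgr5-sorted cells, 3 to 5 in EM organoids and 2 on the DM array. Labelled identities were read against their markers. All 8 hepatocyte markers were above background on every liver and hepatocyte array, and all 7 bile duct markers on both duct cell arrays. All 8 endothelial, all 8 macrophage and all 5 smooth muscle markers were also above background on both duct cell arrays. On the Lgr5-sorted arrays 4 of 7 bile duct markers, Krt19, Epcam, Sox9 and Cldn4, were above background on neither array, whereas 7 of 8 macrophage markers were above it on both.

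The gene for each level was read by its brightest probe. In the mm9 build of the files these probes lie at chr3:82696805-82696864 for Lrat, chr1:75363404-75363629 for Des, chr2:13504232-13504291 for Vim, chr19:34316060-34316119 for Acta2 and chr9:45738097-45738156 for Tagln. Lum and Dcn are neighbours on chromosome 10, with probes at chr10:97035210-97035269 and chr10:96980233-96980292, and the Loxl1 probe lies at chr9:58138570-58138629. The Des and Acta2 probes were printed on 10 spots per array, and the median SD of the log2 ratio over the spots of an array was 0.10 for Des and 0.055 for Acta2. Reference RNA gave a signal above background for 9 of the genes on at least 26 of 28 arrays. For Lrat it did so on 0 of 28, so the Lrat ratio measures the sample against a background-level reference.

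RefSeq promoter windows (build GRCm38.p6) matched 4 of the 10 genes: Lrat, Des, Vim and Acta2. The 250 bases before the start of Acta2 and of Lrat are shown because these 2 genes stand for the contractile and the vitamin A side of the list and had unlike patterns over the groups. Both lie on the minus strand, at chr19:34255374-34255623 for Acta2 and chr3:82903975-82904224 for Lrat, and capitals mark matches to the CArG box, the site of serum response factor, with up to 1 letter off.
Acta2: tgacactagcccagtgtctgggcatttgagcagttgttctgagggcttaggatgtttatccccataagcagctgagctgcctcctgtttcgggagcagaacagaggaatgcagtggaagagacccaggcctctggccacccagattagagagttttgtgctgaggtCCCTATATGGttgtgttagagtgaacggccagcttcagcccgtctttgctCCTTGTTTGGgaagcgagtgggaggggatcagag
Lrat: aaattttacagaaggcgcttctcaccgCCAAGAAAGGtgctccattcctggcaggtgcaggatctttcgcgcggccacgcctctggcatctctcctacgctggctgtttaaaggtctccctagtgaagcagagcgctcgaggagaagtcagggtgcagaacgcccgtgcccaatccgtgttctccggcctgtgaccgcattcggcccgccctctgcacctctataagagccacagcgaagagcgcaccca
No window of the 4 genes held an exact CArG box on either strand, which 1.47% of all 32851 windows do. With up to 1 letter off, a reading added after the windows were seen, it matched 2 times in Acta2, starting 84 and 34 bases before the start, and 1 time in Lrat, 223 bases before it. Of all windows 18.6% hold such a match. TATAAA occurred 32 bases before the start of Vim and in none of the other 3 windows (12.4% of all windows hold it). The Smad motif CAGACA was found in Acta2 (17.1% of windows) and the TEAD motif GGAATG in Acta2 and Lrat (12.6%), each searched on both strands. These are letter matches, and no binding was measured.

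A pair of patterns ran across the 13 groups. Lrat was high in liver tissue and at or near background everywhere else. Each of the other 9 genes had its lowest mean in organoids and its highest in duct cells, muscle or white adipose tissue. Over the 13 group means, the correlations among those 9 had a median Pearson r of 0.84, with a lowest value of 0.57 for Des with Dcn and for Lum with Lox, and a highest of 0.96 for Vim with Acta2. Lrat correlated with the other 9 at a median r of -0.12, between -0.45 and 0.23. Over only the 7 groups of liver tissue and cells isolated from liver, the median among the 9 was 0.77. Lox was then less alike, at -0.06 with Lum, 0.22 with Des, 0.23 with Pdgfrb, 0.24 with Dcn and 0.35 with Tagln. It stayed at 0.67 with Acta2, 0.79 with Vim and 0.81 with Loxl1. Lrat lay between -0.89 and 0.16 there. Groups share the reference RNA and differ in depth, so these r values are descriptions.

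**Figure D1:**
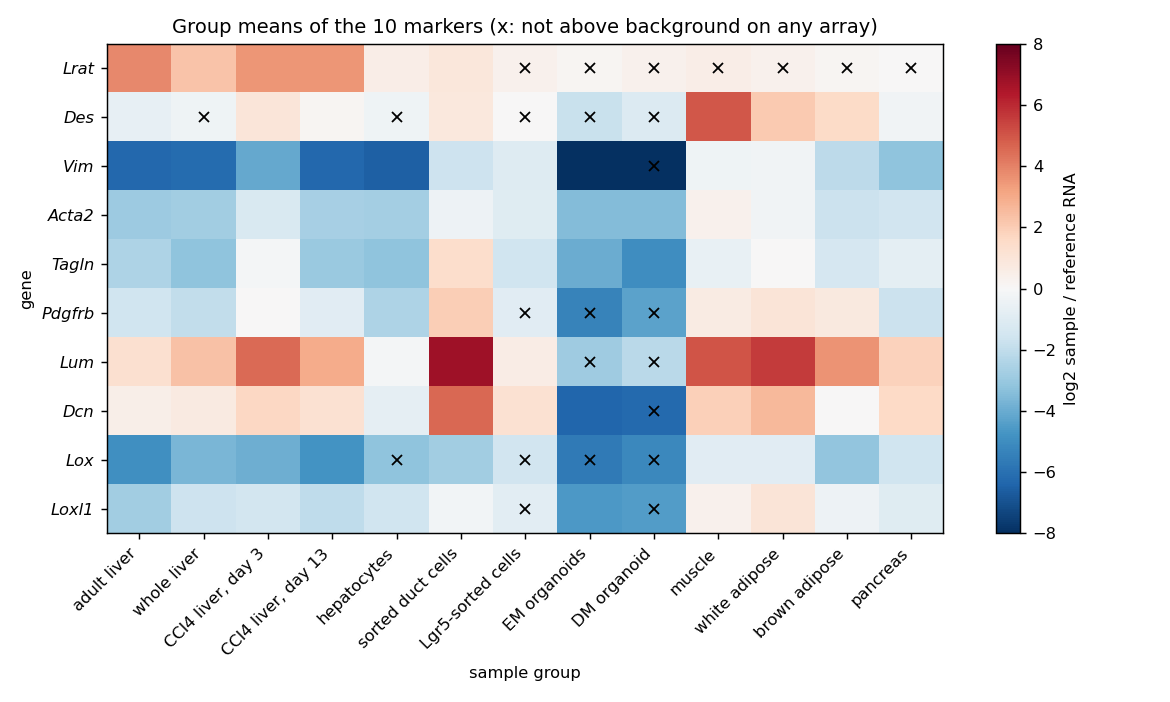
Group means of the log2 sample to reference ratio (colour) for the 10 genes (rows) in 13 groups (columns), with a cross where no array of the group was above background. The Lrat row is red in the 4 liver tissue groups, at 2.27 to 3.84, and at 0.03 to 0.89 in the other groups, while the Vim row runs from -7.95 in the DM organoid to -0.31 in white adipose tissue.

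**Figure D2:**
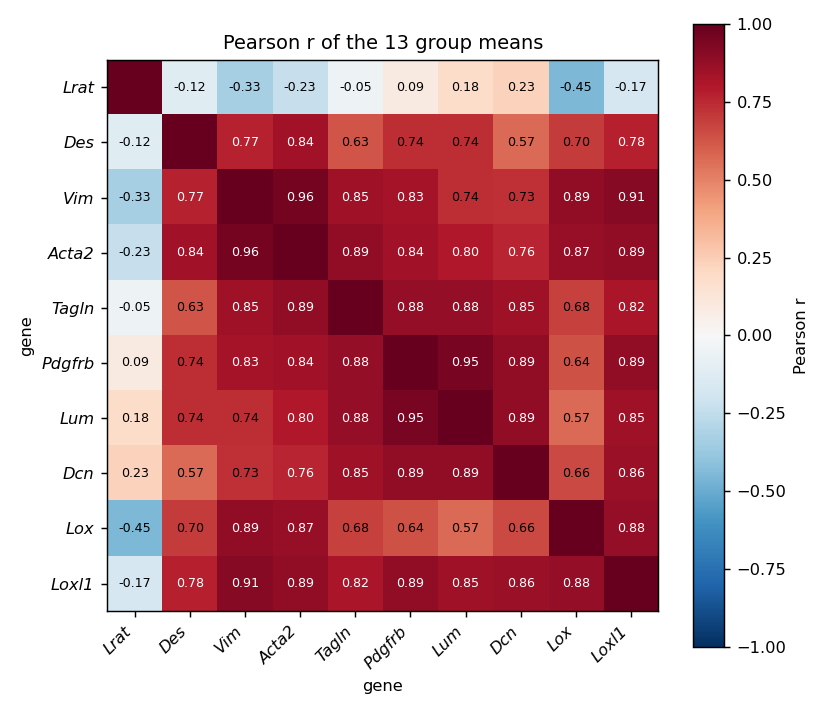
Pearson r between the 13 group means of each pair of genes, printed in each square. The row of Lrat lies between -0.45 and 0.23, and the squares among the other 9 genes between 0.57 and 0.96.

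Lrat, the retinol esterifying enzyme of stellate cells, gave 3.44 and 4.23 on the adult liver arrays, 3.39 and 3.63 at day 3 of CCl4, and 3.38 and 3.71 at day 13. Whole liver was lower, at 2.14 and 2.41. These 4 groups did not overlap with any other. Duct cells followed at 1.02 and 0.76 and hepatocytes at 0.68 and 0.42, the last of these not above background. On every array of Lgr5-sorted cells, organoids, muscle, both fats and pancreas Lrat was not above background. Among neighbours in this order only day 3 against whole liver (difference 1.23 ± 0.27, standard error) and whole liver against duct cells (1.39 ± 0.27) passed the test. The second Lrat probe had r = 0.97 with the first over the groups but gave smaller steps, with a difference of -0.23 in place of -1.39 for duct cells against whole liver.

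Of the 2 intermediate filament genes, Des (desmin, of muscle and stellate cells) was highest in muscle, at 4.93, 4.79 and 5.09. Vim (vimentin, the filament of mesenchymal cells) was near the reference in muscle and white adipose tissue, from -0.46 to -0.10 over their 6 arrays. Vim was far below it in liver, from -6.45 to -6.07 on the undamaged and day 13 arrays. Des in muscle exceeded its neighbour, white adipose tissue, beyond the test's threshold, and no other neighbouring groups of Des could be separated. For Vim the steps from brown adipose tissue to pancreas, from day 3 to whole liver and from hepatocytes to EM organoids passed.

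The contractile genes are Acta2, the smooth muscle actin that defines myofibroblasts, and Tagln, the actin-binding protein transgelin. Acta2 was above background on all 28 arrays. Its group means ran in small steps from 0.36 in muscle to -3.50 in EM organoids, and of its 12 pairs of neighbours limma called 0, with 2 at an unadjusted p under 0.05. Tagln was highest in duct cells, where its spot was kept on 1 array (1.42), and that step over white adipose tissue (0.01) was the only neighbouring pair of its 12 to pass. The spot of the other duct cell array was an outlier by the scanner's rule and gave 0.55 when kept, and the step was then 0.98 ± 0.31, short of the minimum change.

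Pdgfrb, the receptor through which PDGF-B drives stellate cells to divide, was highest in duct cells (2.13 and 1.82). It was near 1 in white adipose tissue, from 0.96 to 1.09, and not above background in organoids or Lgr5-sorted cells. The proteoglycans Lum (lumican) and Dcn (decorin), which bind collagen fibrils and shape their spacing, were also highest in duct cells. Lum gave 5.72 and 7.84 there and Dcn 3.71 and 5.47, so the 2 duct cell arrays differed from each other by more than most neighbouring groups did in their means. The step from duct cells to white adipose tissue was called for Dcn (1.97 ± 0.50) and not for Lum (1.18 ± 0.54), whose arrays in these 2 groups overlapped. Lox and Loxl1, the lysyl oxidases that cross-link collagen and elastin, were highest in muscle and white adipose tissue. Lox lay between -1.10 and -0.68 over those 6 arrays and Loxl1 between 0.23 and 1.29, and neither gene's 2 leading groups could be separated.

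**Figure D3:**
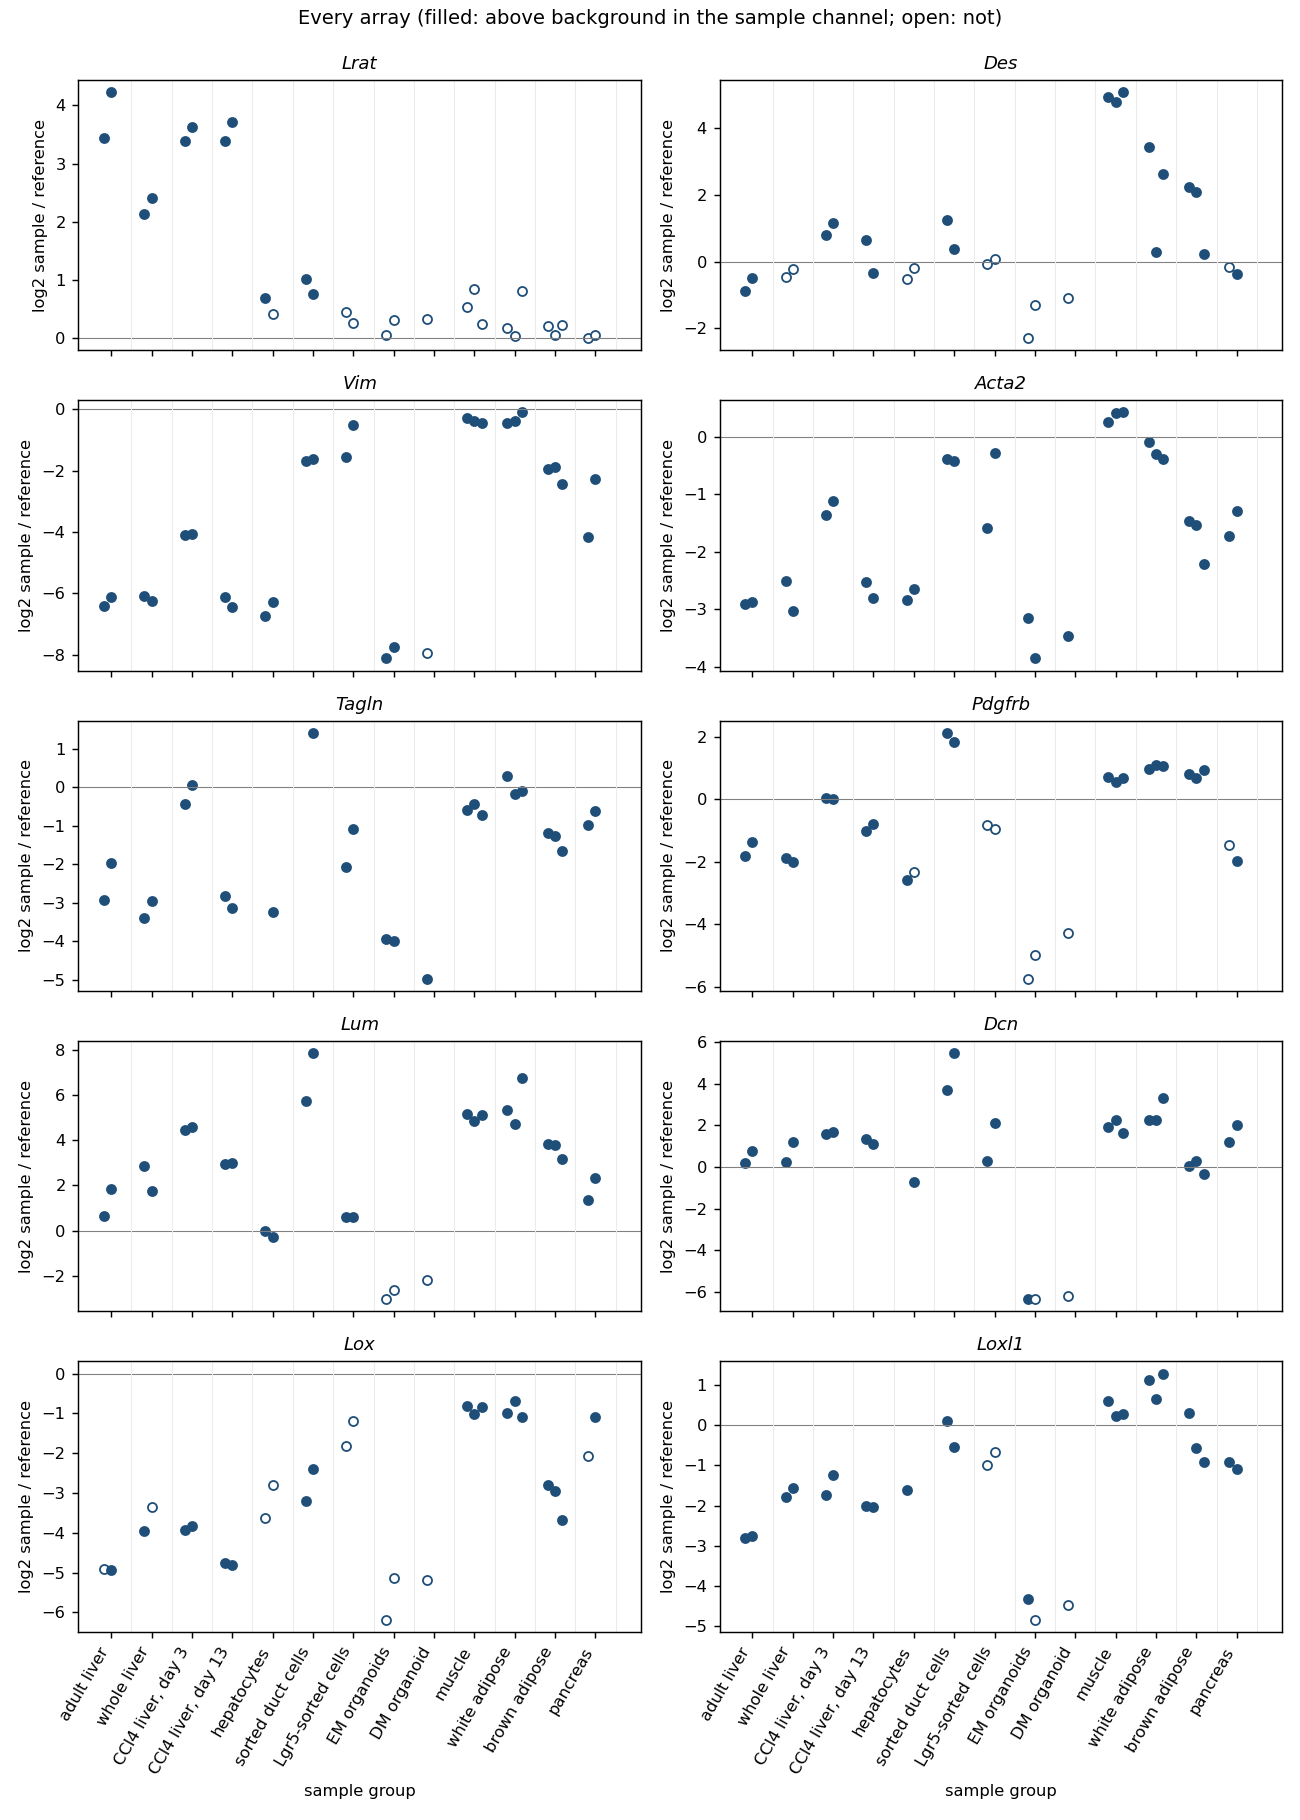
Log2 sample to reference ratio of each of the 10 genes (panels) on every array, by group on the horizontal axis, filled where the sample channel was above background and open where it was not. Replicates of Des lie far apart in the fats, at 0.30 to 3.45 in white adipose tissue, and close together in muscle, at 4.79 to 5.09.

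At day 3 of CCl4, 5 of the 10 genes were called higher than in undamaged liver and 0 lower. They were Vim, Acta2, Tagln, Pdgfrb and Lum. Over all genes 5.05% were called higher and 2.00% lower. A gene was called where its adjusted p was under 0.05 and its log2 change was 1 or more in size. The median change over the 10 was 1.53, and 0.01 over all genes tested. Undamaged liver is here the mean of the adult and the whole liver groups, 4 arrays in all.

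Tagln had the smallest adjusted p of the contractile genes. It gave -0.44 and 0.07 at day 3, against -2.94, -1.98, -3.41 and -2.96 in undamaged liver. The day 3 arrays lay above all 4, by 2.64 ± 0.29 on the log2 scale, or 6.24-fold (adjusted p = 4.72e-06). Acta2 gave -1.36 and -1.12 against -2.90, -2.87, -2.50 and -3.02, again with no overlap, and rose by 1.58 ± 0.29 (adjusted p = 0.000651).

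Vim gave -4.09 and -4.07 at day 3, and every undamaged array lay at -6.07 or lower. The difference was 2.13 ± 0.35, or 4.37-fold (adjusted p = 0.000269). Pdgfrb stood at 0.05 and 0.00 against -1.81, -1.35, -1.88 and -2.01, and rose by 1.79 ± 0.19, or 3.45-fold (adjusted p = 2.41e-06). Lum gave 4.43 and 4.58, and the undamaged arrays spread from 0.67 to 2.87, so the rise of 2.72 ± 0.52 (6.57-fold, adjusted p = 0.00106) has the widest error of the 5.

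The other 5 genes did not pass. Des (1.48 ± 0.61, adjusted p = 0.121) and Dcn (1.03 ± 0.48, adjusted p = 0.172) were higher on both day 3 arrays than on any undamaged array. Loxl1 (0.74 ± 0.28), Lox (0.40 ± 0.34) and Lrat (0.45 ± 0.23) overlapped with undamaged liver. Lrat was above whole liver on both day 3 arrays, by 1.23 against whole liver alone, and -0.33 from adult liver alone. With Agilent's log ratio, the value from the scanner's own software, Des (2.67) and Lox (2.57) were also called. Des was also called with the groups fitted alone (1.48), Dcn with the Cy3 signal alone (1.35) and Loxl1 against adult liver alone (1.29).

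Genes of the same pathways, from lists that hold none of the 10, gave 5 of 14 vitamin A and stellate identity genes called higher, 5 of 12 contractile genes, and 7 of 12 further lysyl oxidases and fibre substrates. Of the PDGF and TGF-beta list 1 of 15 was called, and of the small proteoglycans 1 of 9 was called higher and 1 lower. The medians of these lists were 1.00, 1.18, 1.43, 0.13 and -0.10. Among the largest rises of the lists were Adamtsl2 (1.77 ± 0.26) of the stellate identity genes, the myosin light chain Myl9 (2.75 ± 0.39), the type I collagen chain Col1a1 (3.77 ± 0.30), the ligand Pdgfa (1.65 ± 0.19) and the proteoglycan Bgn (1.33 ± 0.30). Omd, a small proteoglycan, was lower by -1.02 ± 0.27.

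At day 13, 0 of the 10 genes were called against the same undamaged arrays by limma, of 1.34% of all genes called in either direction. At an adjusted p alone, with no minimum change, 1 of the 10 passed. At an unadjusted p under 0.05 there were 3. The gene past the adjusted p was Pdgfrb, with a mean of -0.90 on the day 13 arrays, both above all 4 undamaged arrays, and a difference of 0.87 ± 0.19 (adjusted p = 0.0188). Against day 3, 3 genes were called lower at day 13: Tagln by -2.79 ± 0.33 (adjusted p = 1.89e-05), Vim by -2.20 ± 0.40 (adjusted p = 0.00118) and Acta2 by -1.43 ± 0.33 (adjusted p = 0.00774). Over all genes 3.52% were called lower.

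Between the 2 times the arrays of 9 of the 10 genes did not overlap, and all 9 lay lower at day 13, as did 33.3% of all genes without overlap. Pdgfrb differed by -0.92 ± 0.22 (adjusted p = 0.0114), short of the minimum change, and Lum by -1.55 ± 0.60 (adjusted p = 0.135). Lrat gave the one overlap, with a difference of 0.03 ± 0.27. The 2 comparisons with day 3 share its arrays, so a fall after a rise is in part the same measurement.

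Of the fibre substrates 7 of 12 were called lower from day 3 to day 13, with Col1a1 (-2.88 ± 0.35) and Col3a1 (-2.27 ± 0.42) in front. Of the stellate identity genes 3 of 14 were called lower, led by Adamtsl2 (-1.84 ± 0.30) and Nes (-1.61 ± 0.39). Myl9 was the 1 contractile gene of 12 to pass (-2.45 ± 0.40), and Pdgfa the 1 of 15 signalling genes (-2.08 ± 0.22).

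Markers of other cells moved beside these values. Smooth muscle markers had 1 of 5 called higher at day 3 with a summed ratio to the reference of 5.32 to 10.1 there, against 3.12 to 5.48 in undamaged liver. Their part in the result was not tested. At day 13 markers of skeletal muscle and fat stood high on the first array, where Ckm gave 2.67 and Adipoq 3.17. On the second they gave 0.03 and 0.22, Adipoq there not above background. Des was 0.64 on that first array and -0.33 on the second, and the part of muscle RNA in this was not tested. The 2 times of CCl4 shared 1 slide and scan day, and no undamaged array lay on either, so against undamaged liver batch cannot be told apart from group. With quantile scaling, which gives all arrays 1 distribution, Vim (1.32) and Acta2 (1.16) were no longer called at day 3, and with all Acta2 probes averaged neither was Acta2 (0.72). From day 3 to day 13 Vim was not called with Cy3 alone, the sample signal without the reference (-1.89), or with quantile scaling (-1.07), and Acta2 not with quantile scaling (-0.94), with its probes averaged (-0.92) or without the second array of either time (-1.29 and -1.31).

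**Figure D4:**
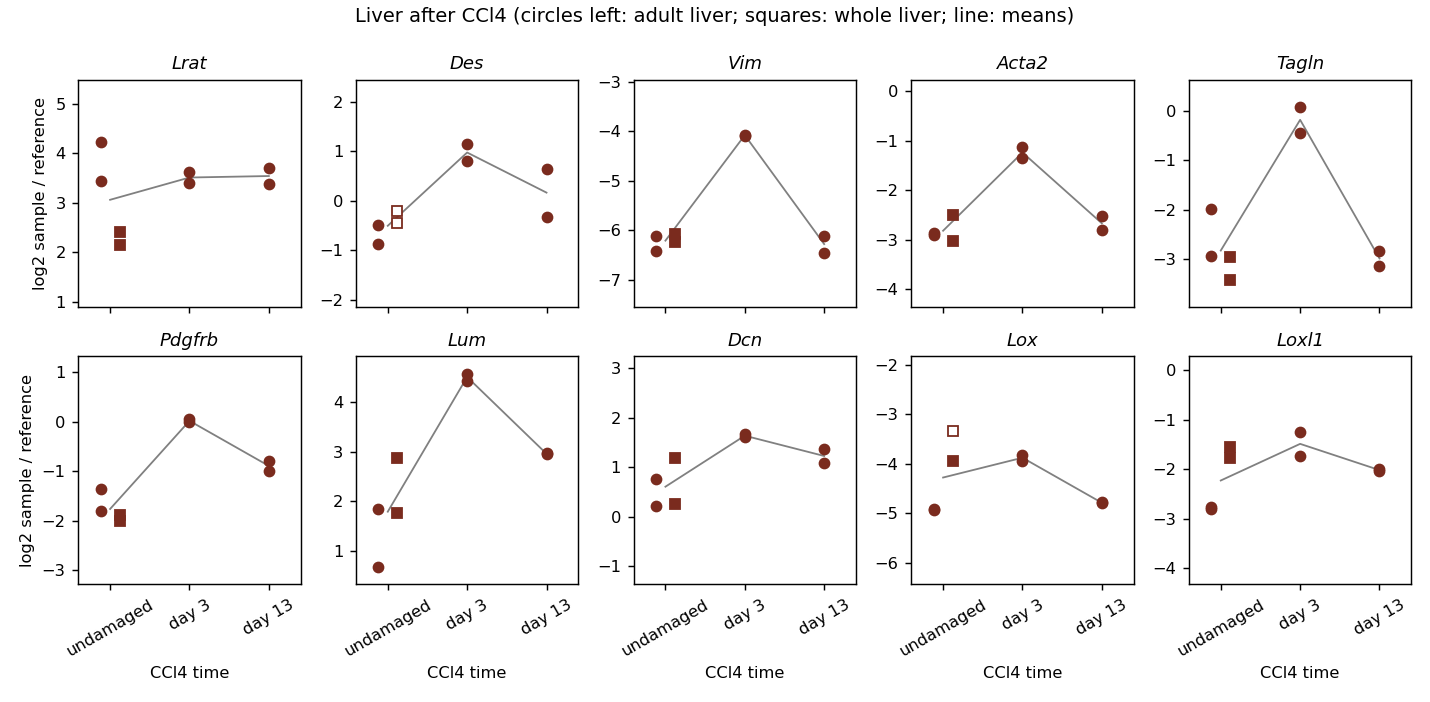
Log2 sample to reference ratio (vertical axes, each 4.6 units tall) of the 10 genes in undamaged liver and at day 3 and day 13 of CCl4, with points for arrays (open where not above background), circles at the left for adult liver, squares for whole liver, and a line through the means. Vim, Acta2 and Tagln peak at day 3 with both arrays above all others, and Lrat stays flat between 3.38 and 3.71 on the 4 CCl4 arrays.

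The 2 groups of undamaged liver themselves differed. In whole liver 2 genes were called higher than in adult liver, Lox (1.27 ± 0.39) and Loxl1 (1.11 ± 0.32), and 1 lower, Lrat (-1.56 ± 0.27, adjusted p = 0.000980). Over all genes 2.25% were called higher and 4.26% lower. Of the stellate identity list 4 of 14 were called lower and 0 higher, with Ngfr (-1.98 ± 0.50) and Adamtsl2 (-1.60 ± 0.30) in front, and 3 of 8 endothelial markers were called lower. Lox was above background on 1 array of each group. None of the 3 genes was called with Agilent's log ratio, with quantile scaling or with the 2 groups fitted alone, and Lrat changed sign with Cy3 alone (0.15). Loxl1 was not called whichever of the 4 arrays was left out (1.00 to 1.22), and Lox not without the second whole liver array (0.96) or either adult liver array. The 2 groups share no slide or scan day, so batch cannot be told apart from group.

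In duct cells 7 of the 10 genes were called higher than in hepatocytes and 0 lower: Vim, Acta2, Tagln, Pdgfrb, Lum, Dcn and Loxl1. Over all genes 11.9% were called higher and 11.3% lower. The median difference over the 10 genes was 3.38, and 0.00 over all genes. Duct cells and hepatocytes were hybridised on the same 2 slides.

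Pdgfrb gave 2.13 and 1.82 in duct cells and -2.58 and -2.32 in hepatocytes, with 1 hepatocyte array not above background. The difference was 4.43 ± 0.22, or 21.5-fold (adjusted p = 9.70e-12). Vim gave -1.69 and -1.63 against -6.75 and -6.28, a difference of 4.85 ± 0.40 (adjusted p = 8.62e-09), and Acta2 differed by 2.33 ± 0.33 (adjusted p = 1.05e-05). All 4 pairs of arrays of these genes are far apart relative to their errors.

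Several values rest on single arrays because outlier spots were left out. Tagln had 1 array on each side (1.42 against -3.24, difference 4.66 ± 0.47, adjusted p = 2.80e-07), and Dcn 1 hepatocyte array (-0.70, difference 5.30 ± 0.68, adjusted p = 3.87e-06). With those spots kept, Tagln (4.39) and Dcn (5.83) were still called, and Loxl1, with 1 hepatocyte array at -1.60, was not (0.62 in place of 1.39 ± 0.40). Loxl1 was also not called with quantile scaling or without the first duct cell array. Des and Lox were not above background in hepatocytes, and their differences of 1.18 ± 0.71 (adjusted p = 0.263) and 0.41 ± 0.39 (adjusted p = 0.553) were not called. With Agilent's log ratio both were called (3.55 and 2.21). Lrat differed by 0.34 ± 0.27.

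Against whole liver, duct cells had 7 genes called higher (11.1% over all genes), Vim, Acta2, Tagln, Pdgfrb, Lum, Dcn and Loxl1, and 1 lower (11.2%). The lower one was Lrat, by -1.39 ± 0.27 (adjusted p = 0.000321), at 1.02 and 0.76 against 2.14 and 2.41. Vim was higher by 4.49 ± 0.40, Pdgfrb by 3.92 ± 0.22 and Lum by 4.46 ± 0.60. Duct cells thus lay above whole liver in 7 genes of the list and below it in the gene of vitamin A storage. The Lrat call was lost with Cy3 alone (-0.74), with quantile scaling (-0.99) and with both probes averaged (-0.81).

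Of the 10 genes Lrat alone was called in hepatocytes against whole liver, lower by -1.73 ± 0.27 (adjusted p = 0.00243), where 0.385% of all genes were called lower. Lum was 0.01 and -0.26 in hepatocytes against 2.87 and 1.77 in whole liver, a difference of -2.45 ± 0.60 that narrowly missed (adjusted p = 0.0551) and was called under 7 of the alternatives tried. The other 8 genes had adjusted p-values of 0.406 or more. The Lrat call was lost with Cy3 alone (-1.02) and with the groups fitted alone, and the second Lrat probe gave -0.56. Des was above background in neither group.

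The lists without the 10 genes moved beside them in duct cells against hepatocytes. Of the stellate identity genes 10 of 14 were called higher and 1 lower, with Cygb (3.78 ± 0.43) in front and Rbp4, the retinol carrier that hepatocytes secrete, at -2.89 ± 0.81. Of 12 contractile genes 8 were called higher, led by Myl9 (4.98 ± 0.47), and of 15 signalling genes 12, led by Ccn2 (4.59 ± 0.83). Among fibre substrates 8 of 12 were called higher, with Col1a2 at 6.15 ± 0.58. The medians of these 4 lists were 2.14, 1.76, 2.36 and 1.99.

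Other cell types and handling moved with the same contrast. Endothelial markers were called higher in 7 of 8, at a summed ratio of 78.9 to 280 in duct cells and 14.3 to 15.5 in hepatocytes. Mesothelial markers were called higher in 4 of 5, portal fibroblast markers in 4 of 6, and smooth muscle markers in 4 of 5. Immediate early genes, which rise when tissue is dissociated, were called higher in 6 of 6, at 147 to 524 against 2.19 to 2.73. Bile duct markers were called higher in 6 of 7. Their part in the values of the 10 genes was not tested. Within each of the 2 slides every called gene with a value there kept its sign, 5 of 5 and 6 of 6.

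Lgr5-sorted cells had 4 genes called lower than duct cells, Tagln, Pdgfrb, Lum and Dcn, and 1 higher, Lox, where 5.39% and 6.01% of all genes were called lower and higher. Lum gave 0.60 and 0.61 in Lgr5-sorted cells against 5.72 and 7.84, a difference of -6.17 ± 0.60 (adjusted p = 6.89e-07). Pdgfrb was not above background on either Lgr5-sorted array and was at least 6.53-fold lower. Dcn gave 0.31 and 2.13 against 3.71 and 5.47 (-3.38 ± 0.55, adjusted p = 0.000240).

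Vim gave -1.55 and -0.50 in Lgr5-sorted cells and -1.69 and -1.63 in duct cells, a difference of 0.64 ± 0.40 that was not called. With Cy3 alone it was lower, at -2.27, and called. Lox was not above background on either Lgr5-sorted array, though it was on both duct cell arrays, so its call has no fold. Its sign turned with Agilent's log ratio (-0.66). Lox was also not called with Cy3 alone (0.2) or quantile scaling (0.41). It was not called without the first duct cell array (0.91) or the second Lgr5-sorted array (0.99). Loxl1, Acta2 and Des were not called. Under other settings Loxl1 was called lower with Agilent's log ratio (-2.13), Cy3 alone (-1.91) and quantile scaling (-1.37). Acta2 was called lower with Cy3 alone (-2.54), and Des with Agilent's log ratio (-2.26). The 2 Lgr5-sorted arrays differed in Acta2, at -1.59 and -0.28, and without the second it was lower by -1.18. Loxl1 and Des were not above background on either Lgr5-sorted array. With the 2 groups fitted alone limma called 0 of the 10, with 5 at an unadjusted p under 0.05.

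Against whole liver, Lgr5-sorted cells had 5 genes called higher (12% over all genes) and 2 lower (9.43%). The higher ones were Vim (5.13 ± 0.40), Acta2 (1.83 ± 0.33), Tagln (1.61 ± 0.33), Pdgfrb and Lox. Pdgfrb and Lox were not above background in Lgr5-sorted cells and have no fold. Whole liver was above background for Pdgfrb on both arrays and for Lox on 1, so these 2 calls do not show a higher level in Lgr5-sorted cells. The lower ones were Lrat, at least 3.28-fold, and Lum (-1.72 ± 0.60, adjusted p = 0.0347). With Agilent's log ratio Pdgfrb was called lower (-1.38), and Tagln (0.66), Lox (1.66) and Lum (-1.55) were not called. With quantile scaling Pdgfrb (-0.09) and Tagln (-0.39) turned negative, and Acta2 (0.81), Lox (0.29) and Lum (-1.09) were not called. Acta2, Tagln and Lum were also not called with the groups fitted alone. With Cy3 alone Vim (1.20), Lox (0.65) and Lrat (-0.52) were no longer called, and Acta2 (-1.11), Tagln (-0.91) and Pdgfrb (-0.37) turned negative. Lum was not called without the first whole liver array (-1.17) or either Lgr5-sorted array, and Pdgfrb not without the second whole liver array (1.00). Over all genes Cy3 alone moved the median of this comparison from 0.06 to 0.42.

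Few genes of the lists were above background on the Lgr5-sorted arrays. Of the smooth muscle markers 0 of 5 were, and Hand2, Lhx2, Cygb, Pdgfra and Adamtsl2 of the 14 stellate identity genes were above it on neither array. Macrophage markers were called higher than in duct cells in 7 of 8, at a summed ratio of 1374 to 4575 in Lgr5-sorted cells and 23.9 to 27.2 in duct cells. Immediate early genes were called higher than in whole liver in 6 of 6 and differed between the 2 Lgr5-sorted arrays, at summed ratios from 18.2 to 529. Vim is expressed by macrophages too, and the part of either group of markers in these values was not tested.

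**Figure D5:**
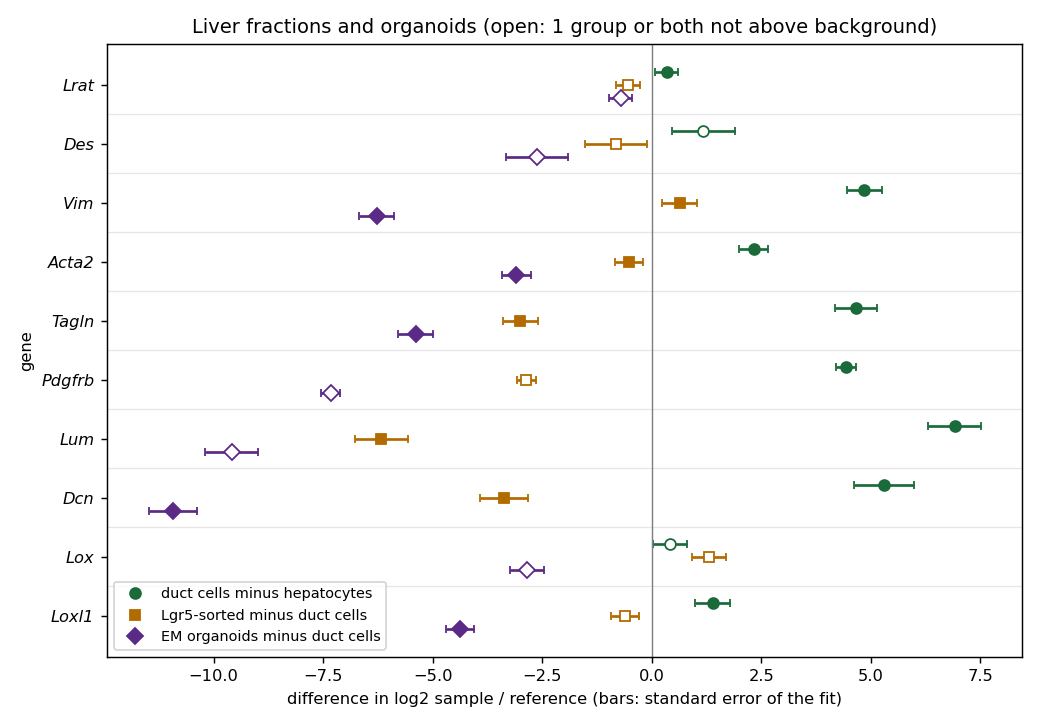
Difference in the log2 ratio (horizontal axis, with bars for the standard error of the fit) of duct cells from hepatocytes, of Lgr5-sorted cells from duct cells and of EM organoids from duct cells, for each of the 10 genes, with open symbols where 1 group or both were not above background. Green circles lie at or right of 0, up to 6.91 for Lum, and purple diamonds left of 0, down to -10.93 for Dcn.

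In EM organoids 9 of the 10 genes were called lower than in duct cells and 0 higher, all but Lrat. Over all genes 14% were called lower and 12.6% higher. The median difference over the 10 was -4.88, against -0.03 over all genes. Dcn gave -6.33 and -6.35 in EM organoids, above background on 1 of the 2 arrays, against 3.71 and 5.47 in duct cells, a difference of -10.93 ± 0.55 (adjusted p = 5.59e-11). Lum was not above background on either EM array and was at least 609-fold lower, and Pdgfrb likewise at least 65.7-fold lower. These bounds set the duct cell signal against the detection limit of the EM arrays.

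Vim and Acta2 were above background on both EM arrays. Vim gave -8.12 and -7.76 and was lower by -6.28 ± 0.40 (adjusted p = 5.65e-10). Acta2 gave -3.15 and -3.85 and was lower by -3.09 ± 0.33 (adjusted p = 3.95e-07). Tagln, measured on 1 duct cell array, differed by -5.39 ± 0.40 and Loxl1, above background on 1 EM array, by -4.38 ± 0.32. Des (at least 3.68-fold lower) and Lox (at least 3.78-fold) were not above background in EM organoids. The Acta2 probe at chr19:34322995-34326249 gave -0.84. Without the first duct cell (-2.19) or the first EM array (-2.13) Des was not called, and with quantile scaling Lox was not (-0.49). Lrat, at least 1.57-fold lower, had an adjusted p of 0.0388 and missed the minimum change. It was called lower with Agilent's log ratio (-3.98), with Cy3 alone (-2.69) and with quantile scaling (-1.13).

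Against adult liver 7 genes were called lower in EM organoids, where 17.6% of all genes were: Lrat, Vim, Tagln, Pdgfrb, Lum, Dcn and Loxl1. Lrat was at least 5.08-fold lower, Pdgfrb at least 6.30-fold and Lum at least 7.11-fold. Dcn differed by -6.82 ± 0.55 (adjusted p = 6.51e-09), Vim by -1.67 ± 0.40 and Tagln by -1.51 ± 0.33. Acta2 (-0.62 ± 0.33) did not pass, and its probe at chr19:34322995-34326249 went the other way, at 1.09. Des (-1.12) and Lox, not above background in EM organoids, did not pass either. Des was called lower with Agilent's log ratio (-2.1) and with the groups fitted alone, and Lox was lower by -1.26 without the second EM array. With quantile scaling Vim (-1.09) and Tagln (-1.14) were no longer called. On the 1 scan day that held both groups all 7 called genes kept their sign.

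Other stromal genes in the organoids were mostly low, with exceptions. Against duct cells 9 of 14 stellate identity genes were called lower, with Pdgfra at least 15.9-fold, and 1 was called higher. Fibre substrates were called lower in 9 of 12, led by Col1a2 (-8.27 ± 0.50) and Col1a1 (-7.00 ± 0.35), and small proteoglycans in 6 of 9. Contractile genes were called lower in 6 of 12, led by Myl9 (-6.99 ± 0.40). Of 15 signalling genes 6 were called lower and 3 higher, the highest being the ligand Tgfb3 (2.73 ± 0.38) and the PDGF receptor's ligand Pdgfb (1.83 ± 0.38).

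Endothelial markers were called lower than in duct cells in 7 of 8, and 6 of 8 were above background on neither EM array. Bile duct markers stood at summed ratios of 49.5 to 55.1 in EM organoids and 31.5 to 53.0 in duct cells, and portal fibroblast markers at 11.3 to 17.1 and 9.11 to 15.8. By the mean log2 ratio of the list, portal fibroblast markers were lower in EM organoids, at -1.47 to -1.36, than in duct cells, at 0.13 to 0.54. Gli1 of that list was above background on neither EM array. The immediate early genes that were high in duct cells were called lower in 6 of 6, and their part in the difference was not tested. Duct cells and EM organoids share no slide or scan day, so batch cannot be told apart from group.

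The DM organoid differed from EM organoids in 1 of the 10 genes, Pdgfrb, called higher where 6.20% of all genes were called higher. Pdgfrb was not above background on any of these 3 arrays (-4.28 against -5.74 and -4.97), so the call has no fold. It was lost under 6 of the other settings and without the first EM array. DM has 1 array, whose spread is assumed to equal that of the other groups. Acta2 (-3.46) and Tagln (-4.98) were the 2 genes above background on it.

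The unrelated tissues were each compared with adult liver, so these comparisons share its 2 arrays. In muscle 9 genes were called higher (19.8% of all genes) and 1 lower (15.9%). In white adipose tissue 9 were called higher (14.5%) and 1 lower (13.4%), in brown adipose tissue 8 higher (15.8%) and 1 lower (13.3%), and in pancreas 5 higher (16.4%) and 1 lower (12.6%). The lower gene was Lrat in all 4, at least 5.86-fold, 6.51-fold, 9.49-fold and 5.16-fold.

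Muscle gave the largest difference for Des (5.62 ± 0.65, adjusted p = 3.53e-07), and Vim was higher by 5.90 ± 0.37 (adjusted p = 6.40e-11). Acta2 was higher by 3.25 ± 0.30, and by 5.21 on its probe at chr19:34322995-34326249. Lox, at -0.82, -1.01 and -0.84 against -4.91 and -4.93, was higher by 4.03 ± 0.35, with 1 adult liver array not above background. Dcn (1.45 ± 0.50) was not called with quantile scaling (1.30), or without the second muscle array (1.30) or the first adult liver array (1.18).

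In brown adipose tissue Tagln (1.09 ± 0.30) was not called without its first array (1.00) or the first adult liver array (0.61). It was also not called with Cy3 alone (0.92), quantile scaling (0.83) or its probes averaged (0.91). Des (2.20 ± 0.65) was not called without the first adult liver array (2.01) or with quantile scaling (1.73). Acta2 (1.14 ± 0.30) was not called with Cy3 alone (0.94) or quantile scaling (0.92). None of the 4 tissues shares a slide or scan day with adult liver, so batch cannot be told apart from group.

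White adipose tissue exceeded liver most in Vim (5.96 ± 0.37), Lum (4.34 ± 0.54) and Lox (3.99 ± 0.35), and Loxl1 was higher by 3.80 ± 0.30. Des varied there more than any other gene, at 3.45, 0.30 and 2.63, and in brown adipose tissue at 2.23, 2.10 and 0.23. The skeletal muscle marker Ckm varied beside it, at 4.67, 0.10 and 5.01 in white and 4.64, 4.48 and 3.47 in brown adipose tissue. All 5 skeletal muscle markers were above background on all 6 fat arrays, with summed ratios of 12 to 149 in white and 53.1 to 104 in brown adipose tissue, against 229 to 254 in muscle. In both fats the array with the lowest Ckm also had the lowest Des. The part of muscle RNA in the Des values was not tested. Muscle arrays in turn held the fat gene Adipoq, at 5.36 to 5.90.

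In pancreas Vim (3.06 ± 0.40), Lox (3.33 ± 0.39), Loxl1 (1.78 ± 0.32), Tagln (1.66 ± 0.33) and Acta2 (1.38 ± 0.33) were called higher. Lox was above background on only 1 of the 2 pancreas arrays and 1 of the 2 adult liver arrays, so its difference rests in part on background-level signal. Pdgfrb (-0.13 ± 0.22), Lum (0.57 ± 0.60), Des (0.42 ± 0.71) and Dcn (1.13 ± 0.55) did not pass. The first pancreas array had the fewest probes above background of all arrays, at 17.7%, and its Vim (-4.15) lay well below that of the second (-2.26). With Cy3 alone Acta2 (0.27), Tagln (0.70) and Loxl1 (0.88) were not called. With quantile scaling these 3 and Vim (1.58) were not called and Pdgfrb was called lower (-1.08).

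The 2 fats differed in 7 of the 10 genes, all lower in brown adipose tissue, where 9.34% of all genes were called lower. Dcn gave 0.05, 0.30 and -0.33 in brown against 2.27, 2.27 and 3.34 in white adipose tissue (-2.62 ± 0.45, adjusted p = 0.000144). Lox (-2.21 ± 0.32, adjusted p = 1.70e-05), Lum (-2.01 ± 0.49), Vim (-1.77 ± 0.33), Acta2 (-1.49 ± 0.27), Loxl1 (-1.41 ± 0.26) and Tagln (-1.38 ± 0.27) were also lower. Pdgfrb differed by -0.22 ± 0.18 and Des by -0.61 ± 0.58, and neither was called. Pdgfrb was called lower with quantile scaling (-1.04), and Lrat, not above background in either fat, with Cy3 alone (-2.25). Of the fibre substrates 9 of 12 were called lower and of the contractile genes 6 of 12. With Cy3 alone Vim (-0.87), Acta2 (-0.66), Tagln (-0.89) and Loxl1 (-0.72) were no longer called. With quantile scaling Vim (-1.07), Acta2 (-0.93) and Tagln (-0.98) were not called, nor was Acta2 with its probes averaged (-0.77), and without the second white adipose array Des was called lower (-1.52). The 2 fats share no slide or scan day, so batch cannot be told apart from group.

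The genes whose 13 group means ran most like each of the 10 were named by a fixed rule, the 2 highest Pearson r among all other genes tested. For Lrat they were Urad (r = 0.969), an enzyme of uric acid breakdown, and Gdf2 (0.965), the ligand BMP9 that stellate cells secrete. For Vim they were Serpinh1 (0.977), the collagen chaperone, and Armcx2 (0.975), and for Acta2 the collagen chain Col1a2 (0.976) and again Armcx2 (0.962). Tagln was nearest to the procollagen protease Adamts2 (0.958) and the collagen receptor Ddr2 (0.925), and Lum to Adamts2 (0.946) and Vwf (0.941), the endothelial clotting factor. Pdgfrb ran with Hic1 (0.970) and Icam2 (0.962), Dcn with Ramp2 (0.942) and Adam23 (0.936), and Des with Capn6 (0.973) and Kremen1 (0.969). Lox ran with Scrn1 (0.962) and an unnamed transcript, and Loxl1 with the protease Adamts5 (0.988) and an unnamed transcript. Each is the top of a search over all genes tested and is given as a description.

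Probes of the same gene did not always agree. The second Tagln probe had r = 0.87 with the first and gave smaller differences, such as 2.25 in place of 4.66 for duct cells against hepatocytes. The Acta2 probe at chr19:34322995-34326249 had r = 0.66 with the one used. It gave 0.89 in place of 1.58 at day 3 of CCl4 and 2.34 in place of 2.33 for duct cells against hepatocytes. The probes of Pdgfrb and Lox both lie on chromosome 18. A further probe each of Vim and of Acta2 was above background on 0 of 28 arrays.

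The share of calls over all genes that were higher moved by over 10 percentage points in these cases. With Agilent's log ratio it was 19.6 in place of 48.7% for hepatocytes against whole liver, 29.6 in place of 52.7% and 36.4 in place of 56.0% for Lgr5-sorted cells against duct cells and whole liver, 49.3 in place of 60.8% for DM against EM organoids and 41.2 in place of 56.5% for pancreas. With Cy3 alone it was 18.8, 5.51 and 6.56% for the first 3, 57.0 in place of 71.7% at day 3, 50.8 in place of 37.6% at day 13 against day 3, 79.4 in place of 34.6% for whole against adult liver, 27.0 in place of 47.3% for EM organoids against duct cells, 36.4 in place of 55.6% for muscle, 30.2 in place of 54.4% for brown adipose tissue, 72.2% for pancreas and 19.7 in place of 50.7% for brown against white adipose tissue. With quantiles it was 60.3% at day 3 and 54.9 in place of 69.0% at day 13 against undamaged liver.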

How the data were processed

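Cy3-labelled sample RNA and Cy5-labelled reference RNA were scanned with Agilent Feature Extraction, version 10.5.1.1 per the file headers and 8.5.1.1 per the submitters' processing notes. The scanner files that the authors deposited give the median intensity of each spot and of its local background, flags, and, per the file headers, a log10 ratio of Cy5 over Cy3 that the authors' series matrix repeats (largest difference 0). Median intensity was corrected with normexp (offset 50) and loess within arrays in limma 3.58.1 (R 4.3.3). This gave log2 of Cy3, the sample per the labels, over Cy5. The 1639 control spots had weight 0, outlier spots (0.688%) were left out, and spots of a probe were averaged. No spot was saturated.

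Tests kept probes whose Cy3 signal was well above background on 2 or more arrays. That left 31064 probes of 21032 genes, and 16783 genes took their name from RefSeq. Each gene was read by its probe of highest mean Cy3 signal. One limma fit with a mean per group covered all 28 arrays (15 residual and 4.37 prior degrees of freedom). P-values are two-sided and adjusted by Benjamini-Hochberg over all genes of a comparison. Where a group was not above background on any array, "at least" folds set the brighter group against the detection limit of the dimmer group's arrays, per channel after loess and Aquantile scaling, and are subject to dye bias since no dyes were swapped. They rest on Cy3 signal, so they can differ from the fold of the ratio. The fit was tested on simulated data. The genes and lists were chosen with earlier results of these data known. Named list genes are, per comparison, up to 2 with the largest rise and 2 with the largest fall among those called, and marker genes are those of the marker lists. Summed ratios add the sample to reference ratios of a list's genes on an array. Arrays lay on 13 slides scanned on 9 days. Precision is limited by how many arrays a group has. Protein sequences were not used here, and 1 gene of the lists is not reported here. Alternatives were quantile scaling between arrays, Agilent's own log ratio, the Cy3 channel alone (75th percentile scaling), no background correction, other filters, probe rules, blocks and fold minimums, and each array left out.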

Additional observations from a re-analysis of the deposited data

How the results depend on the processing

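Under the alternatives the counts of called genes among the 10 stayed within 1.5 times except as follows, and for these the cause was not tested. With Agilent's log ratio the count was 2 in place of 1 for hepatocytes against whole liver, 4 in place of 7 for Lgr5-sorted cells against whole liver, 0 in place of 3 for whole against adult liver and 0 in place of 1 for DM against EM organoids. With Cy3 alone it was 0 for hepatocytes and 2 for Lgr5-sorted cells against whole liver and 0 for DM against EM organoids, while pancreas against adult liver gave 3 in place of 6 and brown against white adipose tissue 4 in place of 7. With quantiles between arrays they were 2, 2, 0 and 0, with 3 in place of 5 at day 3 of CCl4 against undamaged liver, 1 in place of 3 at day 13 against day 3, and 3 for pancreas. Hepatocytes against whole liver also gave 2 without background correction, with probes above background on at least 7 arrays, with slide or scan day as a random block and with outlier spots kept, and 0 with the groups fitted alone. DM against EM organoids gave 0 without background correction, with scan day as a block and with the groups alone. Fitted alone, with fewer arrays, Lgr5-sorted cells gave 0 against duct cells and 4 against whole liver, and whole against adult liver gave 0. Where limma called 0, between 0 and 5 of the 10 genes had an unadjusted p under 0.05. Day 13 against undamaged liver gave 1 with no minimum change and 2 (Lrat and Pdgfrb) against whole liver alone.

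Leaving out single arrays gave 1 to 2 called genes for whole against adult liver (1 without the second whole liver or without an adult liver array), 0 to 1 for DM against EM organoids, 2 to 3 for day 13 against day 3, 5 to 6 for duct cells against hepatocytes and 5 to 5 for day 3 against undamaged liver. The sign of 10 single values turned. With Agilent's log ratio these were Lox in Lgr5-sorted against duct cells (-0.66) and Pdgfrb in Lgr5-sorted cells against whole liver (-1.38). With Cy3 alone they were Vim against duct cells (-2.27), Acta2 (-1.11), Tagln (-0.91), Pdgfrb (-0.37) and Dcn (-2.56) of Lgr5-sorted cells against whole liver, and Lrat in whole against adult liver (0.15). With quantiles they were Tagln (-0.39) and Pdgfrb (-0.09) of Lgr5-sorted cells against whole liver.

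In duct cells, hepatocytes, whole liver and Lgr5-sorted cells the replicate number goes with the slide. Of 7 pairs of groups on the same slides 4 had a correlation of same-numbered deviations over 0.1 (range -0.11 to 0.44), and since not every pair did, the numbers were not taken as pairing the arrays. A fit with the replicate block called 7 of the 10 genes for duct cells against hepatocytes, 5 at day 3 of CCl4 and 9 for EM organoids against duct cells, the same counts as without it, and moved no other count.

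Counts over all genes moved by over 1.5 times as follows. Duct cells against hepatocytes gave 7677 with Agilent's log ratio in place of 4889. Hepatocytes against whole liver gave 409, 32 and 102 with Agilent's log ratio, Cy3 alone and quantiles, 242 with scan day as a block and 0 with the groups alone (1582 at an unadjusted p under 0.05), in place of 158, and 55 to 461 with single arrays left out. Lgr5-sorted against duct cells gave 4997, 3633 and 4244, 0 with the groups alone (3862 at an unadjusted p under 0.05) and 3670 with no minimum change, in place of 2396, and against whole liver 2869 with the groups alone in place of 4506. Whole against adult liver gave 261, 5013 and 195, 9 with the groups alone and 2576 with no minimum change, in place of 1371, and from 830 with single arrays left out. Day 13 against undamaged liver gave 102 with Cy3 alone, 71 with quantiles, 168 with scan day as a block, 83 with the groups alone, 516 with no minimum change and 991 against whole liver alone, in place of 281, and from 84 without single arrays. Day 13 against day 3 gave 502 with quantiles and 1820 with no minimum change in place of 1185, and from 777 without single arrays. DM against EM gave 1160 with Agilent's log ratio in place of 2144. With Cy3 alone EM organoids against duct cells gave 13434 in place of 5604, pancreas 11693 in place of 6100 and brown against white adipose tissue 11152 in place of 3987 (2562 with quantiles). With no minimum change day 3 gave 3234 in place of 1483, muscle 11936 in place of 7508, white adipose tissue 9350 in place of 5861, brown adipose tissue 10000 in place of 6122 and brown against white 8137.

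The median change over all genes lay with Cy3 alone between -0.93 and 0.73 by comparison. Low signal limits values of Lgr5-sorted cells and organoids, where 5 of the 10 genes or fewer were above background on an array.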
